A study of Mus musculus with 6 samples.

Results

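The clone 3-only promoter peaks are 1072 regions of open chromatin that were listed in Spen KO clone 3 and in no part of the WT list. They were selected on the measured lists themselves. A peak of the Spen KO clone 3 list was taken when it lay on chromosomes 1 to 19 outside chromosome 1 from 100 to 130 Mb, overlapped no WT peak by 1 bp or more, and had its midpoint within 1 kb of the transcription start of a protein-coding transcript in the GENCODE annotation of mm9. They made up 1072 of the 8294 promoter peaks of clone 3 (12.9%), 1072 of its 22101 autosomal peaks and 1072 of the 46475 peaks in both lists together. The numbers of peaks found in 1 list are therefore given as a description and not as a test.

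ATAC-seq reads open chromatin through the insertion of adapters by the Tn5 transposase, and the start of a gene is open when the machinery that begins transcription can reach it. In embryonic stem cells most promoters with many CpG dinucleotides are open whether or not the gene is strongly transcribed, whereas CpG-poor promoters are mostly open in the cell types that use the gene. Spen is a large RNA-binding repressor that brings histone deacetylase complexes to chromatin, is needed for silencing by Xist, and also acts as a corepressor in the Notch pathway.

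The study profiled haploid mESCs of mixed background, grown in serum and LIF, that all carry a doxycycline-inducible Xist. The groups used here are HATX WT and Spen KO clone 3, in which Spen is deleted, and the knockout line is 1 clone. Each line was sampled without doxycycline and after 2 ug/ml for 48 hr, with 2 replicates per line described as technical, but there is 1 combined list of reproducible peaks per line. Its doxycycline state is not stated, nor whether the values of both replicates differ in it. The other knockout clone, clone 2, was not analysed here.

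The lists hold 23722 peaks for clone 3 and 22753 for WT, and the number of reads behind them is unknown. With 1 list per line, differences between WT and clone 3 could not be checked against replicates and were not tested. Every peak has a value per replicate, whose scale is not named, and the mean of both is called the score. Intervals in brackets are at 95%, by Wilson's method for a share and from the binomial distribution for a median, and cover counting error only. A peak lay within 1 kb of a coding start of Spen in both lists, with a score of 16.8 in clone 3 and 17.2 in WT, so the lists do not check the deletion. Among 9 stem cell markers, 4 had a promoter peak in each list and 3 in both, with Zfp42 at a score of 34.1 in clone 3 and 37.7 in WT. Sox2 had one in WT alone (score 14.79) and Klf4 in clone 3 alone (score 9.385). Pou5f1, Nanog, Esrrb and Dppa5a had none within 1 kb of a coding start in either list. Of 12 markers of other cells, 3 had one in each list and 2 in both, with Thy1 in WT alone and Neurod1 in clone 3 alone.

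Sequences of 9 of these promoters are given on the strand of the gene, with CpG dinucleotides in capitals. The first set comes from the highest-scoring peaks at genes without a WT peak at any coding start. They were read from the mm9 genome as up to 200 bases of each peak outside annotated exons, at chr2:84510928-84511127 for 2700094K13Rik, chr2:11093593-11093739 for Prkcq and chr4:102887890-102888089 for Slc35d1. All of them lie upstream of the nearest coding start.
2700094K13Rik: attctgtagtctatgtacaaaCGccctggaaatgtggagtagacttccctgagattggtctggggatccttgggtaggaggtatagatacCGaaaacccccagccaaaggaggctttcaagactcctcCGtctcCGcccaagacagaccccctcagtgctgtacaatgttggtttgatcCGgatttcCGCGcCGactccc
Prkcq: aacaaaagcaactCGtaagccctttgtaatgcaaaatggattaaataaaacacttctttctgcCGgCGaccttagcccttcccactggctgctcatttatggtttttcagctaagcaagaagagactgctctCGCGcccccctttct
Slc35d1: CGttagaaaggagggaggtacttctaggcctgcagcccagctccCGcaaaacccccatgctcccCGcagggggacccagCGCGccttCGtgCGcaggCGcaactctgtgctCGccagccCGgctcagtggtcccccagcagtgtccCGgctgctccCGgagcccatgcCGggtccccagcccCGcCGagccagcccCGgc

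The second set was chosen after the values were seen, as examples of the germline genes, the developmental transcription factors and the neurotransmitter receptors described below. The positions are chr1:168168876-168169075 for Mael, chr10:87922458-87922570 for Sycp3, chr6:122576228-122576427 for Dppa3, chr5:38215823-38216022 for Msx1, chr2:79296943-79297142 for Neurod1 and chr16:65105251-65105450 for Htr1f. The Sycp3 and Htr1f stretches lie downstream of the nearest coding start and outside annotated exons, and the other stretches lie upstream.
Mael: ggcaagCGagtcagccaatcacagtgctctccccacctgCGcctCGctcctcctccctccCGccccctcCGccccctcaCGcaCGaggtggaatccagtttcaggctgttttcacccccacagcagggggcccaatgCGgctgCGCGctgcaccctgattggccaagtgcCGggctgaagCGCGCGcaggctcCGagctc
Sycp3: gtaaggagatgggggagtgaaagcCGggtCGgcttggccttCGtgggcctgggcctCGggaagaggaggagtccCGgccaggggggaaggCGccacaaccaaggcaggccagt
Dppa3: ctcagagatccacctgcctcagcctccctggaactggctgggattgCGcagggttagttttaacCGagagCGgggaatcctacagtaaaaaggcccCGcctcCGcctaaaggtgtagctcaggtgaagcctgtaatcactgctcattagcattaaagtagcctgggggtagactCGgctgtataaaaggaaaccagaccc
Msx1: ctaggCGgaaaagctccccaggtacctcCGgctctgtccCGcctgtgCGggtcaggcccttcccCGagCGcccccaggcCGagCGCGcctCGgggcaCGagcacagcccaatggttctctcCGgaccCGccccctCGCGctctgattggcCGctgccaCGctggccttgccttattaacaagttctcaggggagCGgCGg
Neurod1: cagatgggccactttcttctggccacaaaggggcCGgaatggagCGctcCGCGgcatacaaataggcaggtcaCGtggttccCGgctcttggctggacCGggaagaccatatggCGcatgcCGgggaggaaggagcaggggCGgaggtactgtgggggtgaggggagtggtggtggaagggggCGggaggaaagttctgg
Htr1f: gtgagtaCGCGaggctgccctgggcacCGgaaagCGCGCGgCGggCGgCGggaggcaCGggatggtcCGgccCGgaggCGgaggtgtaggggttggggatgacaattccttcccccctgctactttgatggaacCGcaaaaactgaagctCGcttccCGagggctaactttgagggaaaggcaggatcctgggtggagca

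The stretches differ in CpG content. Slc35d1, Msx1 and Htr1f hold 16, 19 and 16 CpG dinucleotides in 200 bases, whereas 2700094K13Rik holds 8 and Dppa3 holds 6. Mael and Msx1 both contain CCAAT and the GC box GGGCGG on 1 strand or the other. The stretch of Dppa3 holds TATAAA near its end at the start of the gene, and that of Neurod1 holds the E-box CACGTG.

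Most of the clone 3-only promoter peaks were weak. Their median score was 10.9 (interval 10.6 to 11.3), against 21.0 (interval 20.7 to 21.2) for the 7222 promoter peaks of clone 3 that overlapped a WT peak and 14.8 (interval 14.6 to 15.1) for the 1892 WT-only promoter peaks. WT-only peaks were 20.8% of the 9097 promoter peaks of WT. The scores of the 2 lists were not normalised to each other, and the shared promoter peaks themselves had a median of 24.9 in WT. Of the 1072 clone 3-only promoter peaks, 422 scored under 10, 480 from 10 to 15, 151 from 15 to 20 and 19 at 20 or more. Only 54 reached the median of their own list. The Irreproducible Discovery Rate (IDR), which the authors limited to 0.05, was above 0.01 for 934 of them (87.1%), against 24.8% of the shared promoter peaks and 61.7% of the WT-only ones. With an IDR of 0.01 or less required in both lists 399 peaks were clone 3-only, of which 138 are among the 1072 and the others overlap a WT peak that this limit removes. The values of both replicates had a Spearman correlation of 0.763 across the 1072 peaks, which share libraries and a common threshold. The IDR limit keeps peaks whose replicate values agree, so this correlation is no check of reproducibility.

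**Figure D1:**
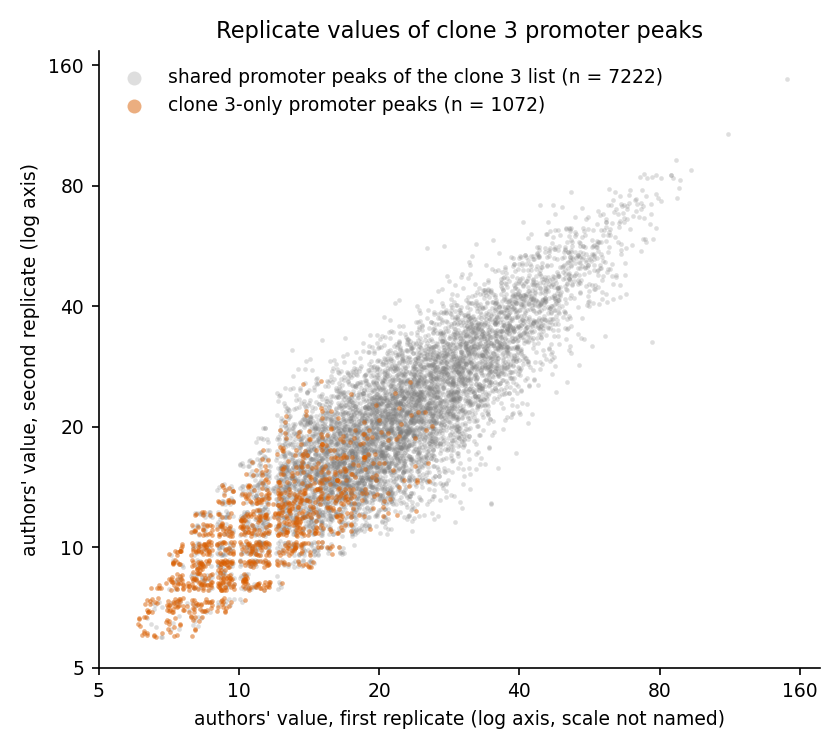
Values of the first replicate against the second for the promoter peaks of Spen KO clone 3, on log axes, with clone 3-only peaks in orange (n = 1072) and peaks that overlap a WT peak in grey (n = 7222). The clone 3-only peaks fill the lower corner and end at a score of 24.6, while shared peaks reach 149.2.

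The 12 highest-scoring peaks lay at genes of unrelated function. 2700094K13Rik, known by a clone name, had 23.3 and 25.8 in the replicates, and no other clone 3-only promoter peak had a higher score. Fer, a cytoplasmic tyrosine kinase, had 25.1 and 21.8. Prkcq, the protein kinase C isoform of T cell receptor signalling, had 24.2 and 21.8. For these 3 genes both replicates stood above the median of the shared promoter peaks, and the peak of Prkcq lay 203.1 kb from the nearest WT peak. Hist1h2al, a replication-dependent histone H2A gene, had 25.9 and 20.03, but 24.65% of the 24-base stretches in its peak have 10 or more copies in the genome. Galnt4, which starts O-linked glycosylation, had 21.7 and 24.3, and a WT peak lay 0.297 kb away. Slc35d1, a nucleotide sugar transporter of the endoplasmic reticulum, had 25.25 and 19.6. The next was Nlrp14, a germ cell member of the NLR family, with 23.38 and 21.45, and here the peak sat 890.5 bp upstream of the start in a sequence with few CpG dinucleotides (0.11 of the number expected from its base composition). Pabpc4l, a poly(A)-binding protein paralogue, had 22.1 and 22.2. Capza2, a subunit of the actin capping protein, had 23.9 and 18.8, and Snrpb2, a protein of the U2 spliceosomal particle, had 22.3 and 20.3. Cyp2j6, a cytochrome P450, had 19.7 and 22.7, and Negr1, a neuronal cell adhesion protein, had 25.5 and 16.2. Negr1 had the widest gap between the replicates of the 12, and a WT peak lay 0.433 kb from it.

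The limits of the selection cut through a continuous series of peaks. Just inside 1 kb of a coding start were the peaks of Plekhb1 at 999 bp, Hic1 at 996 bp and Nkx2-1 at 993 bp, with scores of 12.5, 9.29 and 11.7. Just outside were those of Arhgef25 at 1008 bp, Mos at 1010 bp and Cacna1b at 1019 bp, with scores of 6.70, 15.2 and 10.5. The smallest gaps to a WT peak among the selected peaks were 10 bp at Rpe, 15 bp at Lmbr1 and 26 bp at Ttc7. The smallest overlaps that made a promoter peak shared were 88 bp at Kcnq3, 91 bp at Plcl2 and 111 bp at Pfn2.

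The clone 3-only promoter peaks were spread more widely around the start than the other promoter peaks. Their midpoints lay within 200 bp of a coding start in 64.7% of cases (interval 61.8 to 67.5), against 80.7% (interval 79.8 to 81.6) of the shared and 78.1% (interval 76.1 to 79.9) of the WT-only promoter peaks. At 500 bp or more they were 16.9% (interval 14.8 to 19.2), against 4.999% and 9.355%. Seen from the distance, clone 3-only peaks made up 10.6% of the clone 3 promoter peaks within 200 bp, 16.1% from 200 to 500 bp and 33.4% beyond 500 bp. In WT the WT-only share was 20.2%, 18.7% and 34.0% in the same ranges, so both lists had their largest share of peaks found in 1 list beyond 500 bp. Upstream and downstream midpoints were nearly equal, with 50.8% upstream (interval 47.8 to 53.8), against 58.6% of the shared peaks (interval 57.5 to 59.8) and 51.5% of the WT-only peaks (interval 49.3 to 53.8). The annotation placed 30.6% of the midpoints in UTR exons, 9.70% in coding exons, 24.25% in introns and 35.45% outside coding transcripts. Introns held 15.5% of the shared and 19.3% of the WT-only midpoints. The peaks were short, with a median length of 464 bp (interval 451 to 477) against 628 bp (interval 621 to 633) for shared and 515.5 bp (interval 503 to 527) for WT-only peaks.

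**Figure D2:**
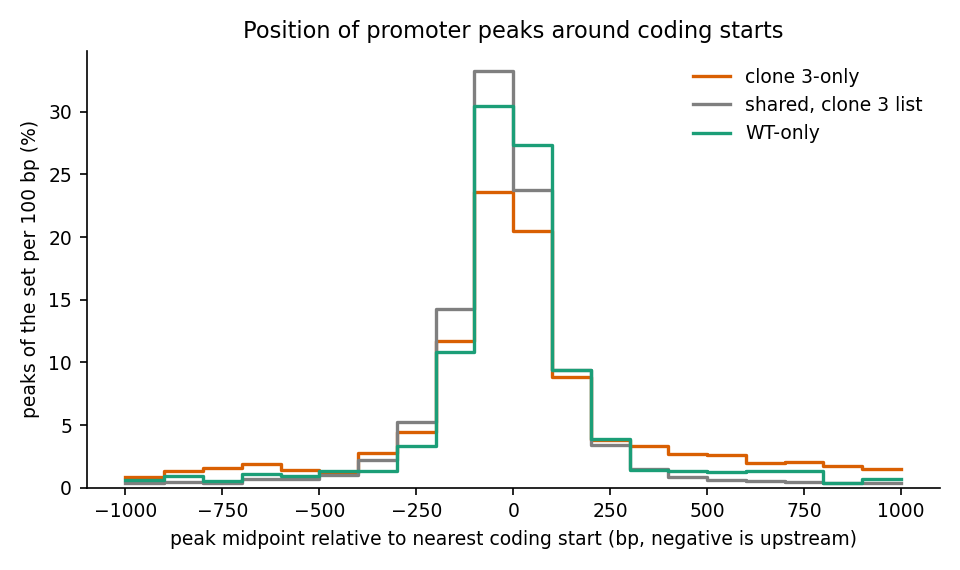
Midpoints of promoter peaks relative to the nearest coding start, in bins of 100 bp, as a percentage of each set, with negative values upstream. In the 100 bp upstream of the start lie 23.6% of the clone 3-only peaks, 33.2% of the shared peaks and 30.4% of the WT-only peaks, and the clone 3-only line stays higher beyond 300 bp downstream.

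Fewer of the clone 3-only promoter peaks were CpG-rich, meaning at least 55% GC and at least 0.75 of the expected CpG number in the 300 bp around the midpoint. The share was 45.6% (interval 42.7 to 48.6), against 58.8% (interval 57.6 to 59.9) of the shared and 56.3% (interval 54.0 to 58.5) of the WT-only promoter peaks. CpG-poor sequence, with under 0.48 of the expected number, made up 19.8% (interval 17.5 to 22.3), against 9.91% and 15.1%. The sets also differ in distance from the start, which was not matched. The CpG-rich share of the clone 3-only peaks was 50.4% within 500 bp of a start and 52.1% for peaks overlapping a start. The other sets were not recomputed under these limits. Within ranges of the score the CpG-rich share was 44.8%, 46.04% and 46.4% of the clone 3-only peaks with scores under 10, from 10 to 15 and from 15 to 20, and 55.6%, 60.5% and 58.6% of the shared peaks in the same ranges. The intervals of both sets overlapped under 10 and did not overlap in the other ranges named. The WT-only peaks had 47.0%, 54.0% and 60.8% in the same ranges, and their intervals overlapped those of the clone 3-only peaks under 10 and from 10 to 15 but not from 15 to 20. At 20 or more the CpG-rich share was 47.4% of the 19 clone 3-only peaks (interval 27.3 to 68.3). This interval overlaps those of the shared (57.0 to 60.1) and WT-only peaks (55.4 to 67.2). Among the strongest peaks both kinds occurred. Snrpb2, Capza2, Prkcq and 2700094K13Rik had 0.98, 0.97, 0.93 and 1.00 of the expected CpG number, and Nlrp14, Cyp2j6, Lama2 and Fer had 0.11, 0.33, 0.43 and 0.47.

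Motifs were searched as exact letters on both strands in the same 300 bp. For all coding starts the 300 bp were centred on the annotated start and not on a peak, so those percentages are not like for like. CCAAT, the box bound by NF-Y, was present in 25.2% of the clone 3-only peaks (interval 22.7 to 27.9), 42.0% of the shared peaks, 27.8% of the WT-only peaks and 32.9% of all coding starts. Within ranges of the score the intervals overlapped, with 22.5%, 25.6% and 31.8% of the clone 3-only peaks against 27.6%, 27.1% and 35.35% of the shared peaks under 10, from 10 to 15 and from 15 to 20. At 20 or more it was 4 of 19 clone 3-only peaks (21.1%, interval 8.51 to 43.3) against 50.4% of the shared peaks (interval 48.8 to 51.9). The ETS motif CCGGAAG was in 10.3% (interval 8.58 to 12.2), against 18.5% of the shared and 17.3% of the WT-only peaks and 10.7% of all coding starts. It was in 9.24%, 11.25% and 10.6% of the clone 3-only peaks in the ranges under 20 and in 13.1%, 15.9% and 18.6% of the shared peaks, and the intervals did not overlap from 15 to 20 alone among these. At 20 or more 1 of 19 clone 3-only peaks held it (interval 0.94 to 24.6), which overlaps the interval of the shared peaks (18.2 to 20.7). CpG-rich clone 3-only peaks held it in 14.1% of cases (interval 11.3 to 17.5) against 22.3% (interval 21.1 to 23.6) of CpG-rich shared peaks. The GC box GGGCGG, bound by Sp factors, was in 65.02%, against 72.9% of the shared and 68.8% of the WT-only peaks and 45.6% of all coding starts. TGGGAA, the core of the site of Rbpj, the transcription factor of the Notch pathway, was in 22.95% (interval 20.5 to 25.6), against 19.8% and 20.03%, and in 22.8% of all coding starts. The octamer ATGCAAAT, read by Oct4, was in 9 peaks (0.84%), against 1.41% of the shared and 1.37% of the WT-only peaks. TATAAA was in 2.985% and the AP-1 motif TGANTCA in 4.20%, against 9.16% and 5.78% of all coding starts, and the other promoter peaks were alike low, with TATAAA in 2.78% of the shared and 3.22% of the WT-only peaks and TGANTCA in 3.59% and 4.28%. CACGTG was in 8.21%, TGACGTCA in 1.77% and AGATAA in 4.10%, and the intervals of these 3 motifs overlapped those of the WT-only peaks. TGACGTCA was in 3.17% of the shared peaks (interval 2.79 to 3.601), above the interval of the clone 3-only peaks (1.14 to 2.75).

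**Figure D3:**
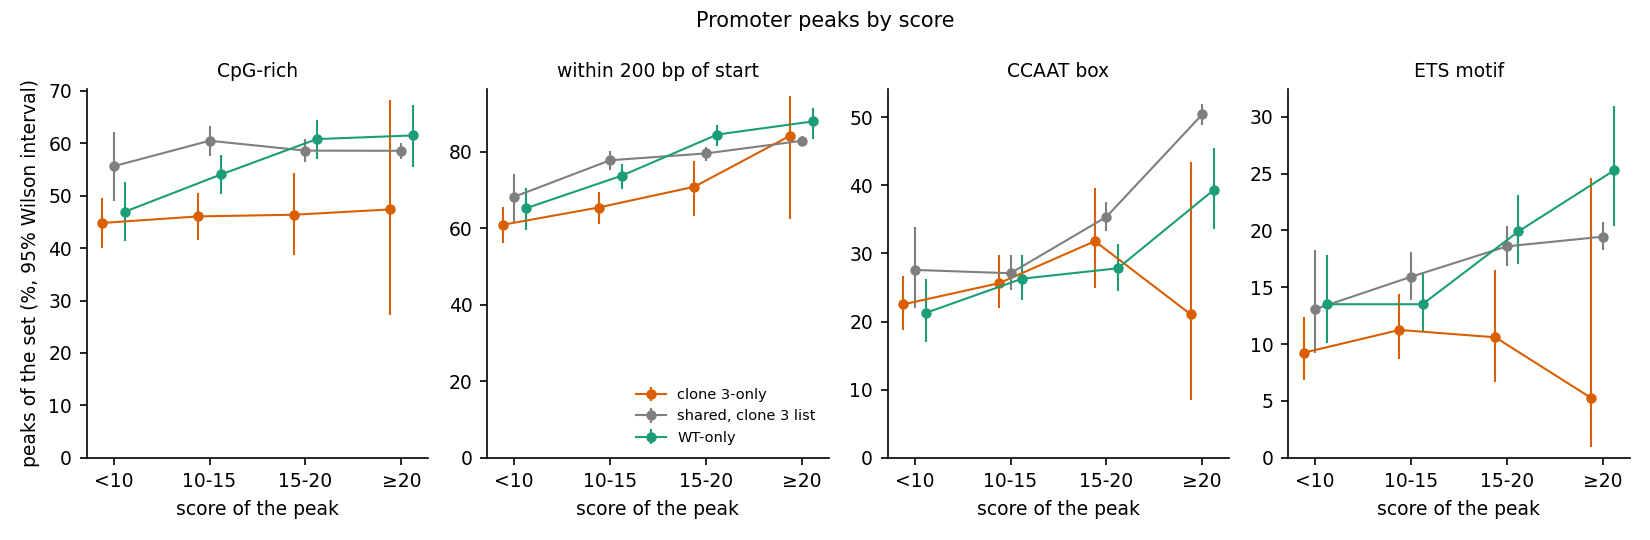
Percentage of promoter peaks that are CpG-rich, lie within 200 bp of a coding start, hold CCAAT or hold CCGGAAG, in ranges of the score, for clone 3-only, shared and WT-only peaks with 95% Wilson intervals. The CpG-rich share of clone 3-only peaks stays between 44.8% and 47.4%, and the highest range holds 19 of them.

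A total of 1111 of the 21350 coding genes analysed carried a clone 3-only promoter peak (5.20%), and 2018 (9.45%) carried a WT-only one. Of the 8676 genes with any promoter peak in clone 3 they were 12.8%. Most had no WT peak within 1 kb of any coding start, namely 914 genes, which are 7.74% of the 11808 genes without one. The other 197 (17.7%, interval 15.6 to 20.1) did have one, with a shared peak at a start in 164 and a WT-only one in 43, and this share was 8.90% with an IDR of 0.01 or less in both lists. Some peaks stood for more than 1 gene, since 70 of them lay within 1 kb of starts of 2 or more coding genes, in 69 cases on opposite strands. The highest-scoring of these pairs was Gm9967 and Ypel3, with 22.1 and 19.01, followed by Asphd1 and Sez6l2, with 18.8 and 18.8, and Cpsf3 and Itgb1bp1, with 18.96 and 17.06. None of these 6 genes had a WT peak at a start. Class members named below also share peaks, such as Ccl25 with Elavl1, Psmc5 with Ftsj3, Rpl4 with Zwilch and Ifitm7 with 2900011O08Rik. Such a peak cannot be assigned to 1 gene alone. Conversely, 32 genes carried more than 1 clone 3-only promoter peak. The carrying genes spanned a median of 26.5 kb (interval 24.0 to 28.9), against 26.6 kb for genes with a shared promoter peak and 15.5 kb for all coding genes. Genes of 100 kb or more were 18.8% of them (interval 16.6 to 21.2), against 15.4% (interval 14.6 to 16.2) of the genes with a shared promoter peak, but the 914 without a WT peak at a start had 16.2% (interval 13.95 to 18.7), which overlaps.

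Beside 135 of the clone 3-only promoter peaks a WT peak lay within 1 kb, and that WT peak overlapped another clone 3 peak in 102 of these cases and was WT-only in 33. The 135 peaks had a median score of 9.76 (interval 9.26 to 10.6) against 19.4 (interval 17.2 to 21.0) for the WT peak. Examples among the named genes are Hnrnpd, with the WT peak 0.537 kb away, Itgav at 0.215 kb and Dnmt3b at 0.601 kb. The 937 others had a median score of 11.2 (interval 10.8 to 11.5), and for 110 peaks the nearest WT peak was over 100 kb away. Another 65 carrying genes had their WT peak at a different start, more than 2 kb from the clone 3-only peak and at a median of 21.4 kb. Fer was the highest-scoring, with the WT peak 74.0 kb away at a score of 62.4. The next, chosen for score after the values were seen, were Arhgap24, a GTPase-activating protein for Rac, with 20.02 and 20.84 and the WT peak 363.8 kb away, and Rreb1, a zinc finger transcription factor, with 18.7 and 16.8 and the WT peak 32.1 kb away.

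Genes were grouped by family or by short lists into 34 classes, and each class is described by its count beside the 5.20% of all coding genes for clone 3-only carriers and the 9.45% for WT-only carriers. In 26 classes WT-only carriers were more numerous, in 6 clone 3-only carriers were, and 2 had neither. The interval of the clone 3-only share lay above 5.20% in 4 classes, which were the germline genes, the neurotransmitter receptors, the developmental transcription factors and the Ankrd, Tmem and Fam genes. It lay below in 3, the chemoreceptors, the keratins and the cytochrome P450 and related enzymes. Among genes with any clone 3 promoter peak, where 12.8% of all genes were clone 3-only carriers, the germline genes (8 of 16, interval 28.0 to 72.0%), neurotransmitter receptors (31.2%, interval 17.9 to 48.6) and developmental transcription factors (28.8%, interval 18.3 to 42.3) lay above it, and so did the secreted ligands (35.3%, interval 17.3 to 58.7) and the ion channels (22.9%, interval 13.3 to 36.5). The intervals of the Ankrd, Tmem and Fam genes (14.2%, interval 10.5 to 18.9) and the P450 and related enzymes (8.0%, interval 2.22 to 24.97) included it, and so did that of the chemoreceptors, with 3 such genes, while the keratins had none. Among genes with any WT promoter peak, 2018 of 9542 were WT-only carriers over all. WT-only carriers were 3 of 14 such germline genes, 5 of 28 neurotransmitter receptors and 19 of 58 developmental transcription factors. They were also 5 of 17 secreted ligands and 18 of 54 ion channels with a WT promoter peak. No intervals were computed for these WT counts. The intervals given make no allowance for the number of classes.

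**Figure D4:**
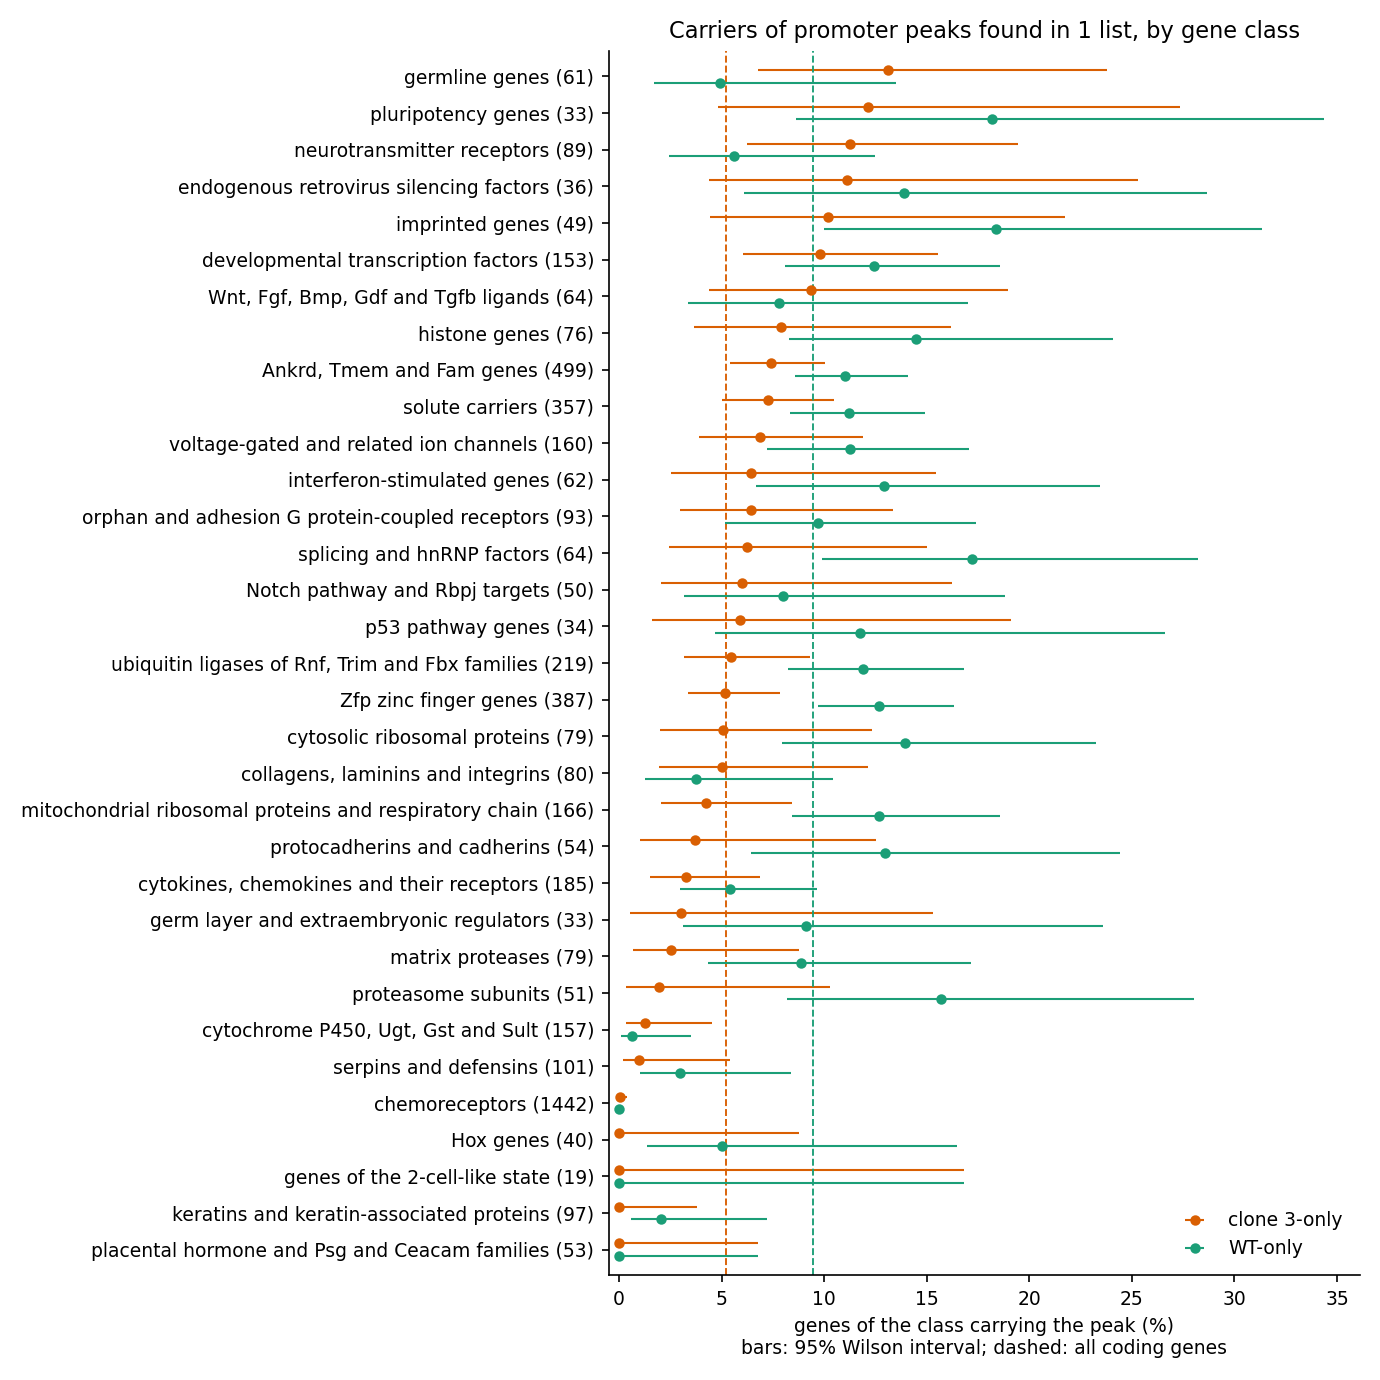
Percentage of the genes of each class plotted that carry a clone 3-only (orange) or a WT-only (green) promoter peak, with 95% Wilson intervals, the number of genes in brackets and dashed lines at the values for all coding genes (5.20% and 9.45%). Germline genes stand highest for clone 3-only peaks at 13.1%, and proteasome subunits show 1.96% against 15.7% for WT-only peaks.

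Germline genes, a list of 61 genes used in meiosis, spermatogenesis or oocytes, had 8 clone 3-only carriers (13.1%, interval 6.80 to 23.8) and 3 WT-only carriers. They were 8 of the 16 germline genes with any promoter peak in clone 3. Nlrp14 had 23.38 and 21.45 in the replicates and stood far above the rest. Mael, a protein of the piRNA pathway that silences transposons in the germ line, had 13.3 and 15.9, with the peak 19 bp from the start and 43.6 kb from the nearest WT peak. Rpl10l, a ribosomal protein gene of the testis without introns, had 10.5 and 9.21. The other 5 scored below 9. Dppa3, the maternal factor Stella, had 9.38 and 8.39, Sycp3, of the synaptonemal complex, 8.37 and 7.82, and Syce2, of the same complex, 7.23 and 9.08. Tex14, of the bridges between germ cells, and Kit, the receptor of stem cell factor, also had a WT peak at a coding start. In the 300 bp around the midpoints Mael, Sycp3 and Dppa3 had 0.81, 0.69 and 0.35 of the expected CpG number, and only that of Dppa3 was CpG-poor.

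Neurotransmitter receptors had 10 carriers among 89 genes (11.2%, interval 6.22 to 19.5) and 5 WT-only carriers. In this list 32 genes had any clone 3 promoter peak and 28 any WT promoter peak. Gabra4, a GABA receptor subunit, had 16.5 and 18.6, and Htr1f, a serotonin receptor, 14.97 and 19.13. Both genes had values in both replicates above the median of the clone 3-only promoter peaks. Others were the serotonin receptor gene Htr4, the kainate receptor gene Grik1, the GABA receptor gene Gabrg3 and the acetylcholine receptor genes Chrm2, Chrm4 and Chrna9, with scores from 8.21 to 14.7. Of the 10 carriers, 9 had no WT peak at a coding start. The intervals of the next 3 classes all included the 5.20% of all coding genes, although that of the ion channels lay above 12.8% among genes with a clone 3 promoter peak. Ion channels had 11 carriers among 160 genes (6.88%, interval 3.88 to 11.9) against 18 WT-only carriers. They were led by Cacnb4, a subunit of voltage-gated calcium channels, with 17.3 and 18.4, Kcnn2, a calcium-activated potassium channel, with 14.3 and 14.8, and Kcnk12, a potassium leak channel, with 12.99 and 15.11. None of these 11 genes had a WT peak at a coding start. Orphan and adhesion G protein-coupled receptors had 6 carriers among 93 genes (6.45%, interval 2.99 to 13.4) and 9 WT-only carriers, with Gpr85 at 13.7 and 15.9, Gpr139 at 16.5 and 11.8 and Gpr37 at 12.98 and 12.57. Cadherins and protocadherins had 2 carriers among 54 genes (3.70%, interval 1.02 to 12.5), Pcdh15 of hair cells at 19.47 and 13.45 and Cdh2, N-cadherin, at 17.12 and 12.96, against 7 WT-only carriers. In chemoreceptors, best known from sensory neurons, 1 of 1442 genes was a carrier, Olfr544 with 7.59 and 7.48.

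Developmental transcription factors of the Sox, Fox, Pax, Nkx and related families had 15 carriers among 153 genes (9.80%, interval 6.03 to 15.6) and 19 WT-only carriers (12.4%, interval 8.10 to 18.6, which includes the 9.45% of all genes). Foxi2, a forkhead factor, had 17.6 and 18.8. Msx1, a homeobox factor of limb and craniofacial development, had 15.8 and 19.8 with the peak 14.5 bp from the start. Neurod1, a proneural factor and 1 of the markers of other cells, had 18.6 and 16.6 and the nearest WT peak 2.01 kb away. None of these 3 genes had a WT peak at a coding start. Among the others were Pax1, Nkx2-1 and Otx1, with scores of 12.5, 11.7 and 11.4. Pou2f1, Foxp1, Foxa3 and Tbx3 also had a WT peak at a coding start, at Pou2f1 only 0.064 kb from the clone 3-only peak. Hox genes had no carrier among 40, which allows a share of up to 8.76% by its interval, and 2 WT-only carriers. Secreted ligands of the Wnt, Fgf, Bmp and Tgfb families had 6 carriers among 64 genes (9.38%, interval 4.37 to 18.98) and 5 WT-only carriers. Fgf10, a growth factor of lung and limb buds, had 17.1 and 13.2, Fgf20 16.7 and 12.8 and Tgfb3 13.7 and 11.8. The peak of Fgf20 was the only one of the 6 at a gene with a WT peak at a coding start. In the Notch list, where Spen is a known corepressor, 3 of 50 genes were carriers and 4 WT-only carriers. Ncor1, a corepressor that binds histone deacetylases, had 11.1 and 11.7, Numbl, a Notch antagonist, 11.4 and 8.17, and Lfng, a glycosyltransferase that modifies Notch, 7.06 and 6.25. Ncor1 had the only score of the 3 above the median of the clone 3-only promoter peaks. Germ layer and extraembryonic regulators had 1 carrier among 33, Eomes at 7.54 and 10.1, against 3 WT-only carriers.

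In the classes of basic cell machinery WT-only carriers outnumbered clone 3-only carriers, as they did over all coding genes, where clone 3-only carriers were 35.5% of both kinds counted together. The intervals of this share included 35.5% for proteasome subunits (1.99 to 43.5), mitochondrial (12.7 to 43.4) and cytosolic ribosomal proteins (10.9 to 51.95). Proteasome subunits had 1 carrier among 51 genes, Psmc5 with 11.2 and 7.92, against 8 WT-only carriers. Mitochondrial ribosomal proteins and the respiratory chain had 7 carriers among 166 (4.22%) against 21 (12.7%), with Cox7a1 at 15.05 and 18.86, Cox5b at 20.9 and 12.2 and Cox5a at 15.4 and 14.8, all of cytochrome c oxidase. Cytosolic ribosomal proteins had 4 of 79 against 11, with no score above 9.85, and these were Rpl10l, Rpl4, Rplp1 and Rpl7a. Splicing and hnRNP factors had 4 of 64 against 11, led by Snrpb2. Hnrnpd had 10.4 and 14.1 and a WT peak at a coding start, and Hnrnpab had 10.9 and 9.25. The Zfp, Zkscan and Zscan zinc finger genes, many of which encode repressors of transposable elements, had 20 of 387 (5.17%) against 49 (12.7%). Zfp354c stood at 24.2 and 14.8, Zfp661 at 16.3 and 21.0 and Zfp382 at 19.7 and 14.8, and none of them had a WT peak at a coding start. Histone genes had 6 of 76 against 11. Besides Hist1h2al they were led by Hist1h4b at 12.6 and 21.3 and Hist1h4f at 15.6 and 15.4, whose coding sequences have near-identical copies, so that the authors' use of unique reads leaves their values uncertain. Ubiquitin ligases of the Rnf, Trim and Fbx families had 12 of 219 against 26, led by Rnf149 at 21.4 and 15.6.

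Solute carriers had 26 carriers among 357 genes (7.28%, interval 5.02 to 10.5) against 40 WT-only carriers. After Slc35d1 came Slc25a21, a mitochondrial carrier of oxodicarboxylates, with 19.3 and 18.9, and Slc38a11, of the amino acid transporter family, with 18.5 and 19.2. None of these 3 had a WT peak at a coding start, and the nearest WT peak was 33.0 kb or more away. Ankrd, Tmem and Fam genes, classed by symbol only, had 37 of 499 (7.41%) against 55, led by Fam183b at 24.1 and 14.6, Tmem38b at 20.9 and 13.7 and Tmem136 at 15.1 and 18.1. The cytochrome P450, Ugt, Gst and Sult enzymes had 2 of 157 (1.27%), Cyp2j6 and Cyp24a1, the enzyme that inactivates vitamin D, at 12.3 and 9.57, against 1 WT-only carrier. Collagens, laminins and integrins had 4 of 80 against 3. Lama2, the laminin chain of muscle basement membrane, had 21.8 and 18.6 and lay 369.9 kb from the nearest WT peak. Itgav and Col8a2 followed with scores of 8.80 and 7.28. Matrix proteases had 2 of 79, Mmp2 at 16.79 and 16.99 and Adamts1 at 14.0 and 13.1, the latter with a WT peak 0.070 kb away, against 7. Serpins and defensins had 1 of 101, Serpine2 at 12.74 and 12.98, against 3. Keratins had none of 97, which allows up to 3.81%, and the placental hormone, Psg and Ceacam families none of 53, which allows up to 6.76%.

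Cytokines, chemokines and their receptors had 6 carriers among 185 genes (3.24%, interval 1.495 to 6.89) against 10, with Ccl25 counted under both of its gene models, and among them were the chemokines Cxcl5 at 18.2 and 18.1 and Ccl25 at 12.45 and 17.38 and the lymphocyte growth factor Il15 at 15.2 and 14.8. The interferon-stimulated genes had 4 of 62 (6.45%, interval 2.54 to 15.45) against 8, and both intervals include the 5.20% of all coding genes. Oas1g had 12.2 and 13.3, followed by Ifitm7 and Gbp2 with scores of 9.75 and 7.42. These 3 lay in CpG-poor sequence, with 0.10, 0.25 and 0.12 of the expected CpG number, whereas the fourth, Irf2, had 0.76.

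Pluripotency genes had 4 carriers among 33 (12.1%, interval 4.82 to 27.3) against 6. Dnmt3b, a de novo DNA methyltransferase, had 12.7 and 9.78 and also a WT peak at a coding start, Klf4, a reprogramming factor, had 9.65 and 9.12 with none, and Dppa3 and Tbx3 were named above. Imprinted genes had 5 of 49 (10.2%, interval 4.44 to 21.8) against 9, namely Pon2, a paraoxonase, at 18.5 and 16.8, Grb10, a growth-restraining adaptor, at 21.83 and 12.01, Inpp5f, a phosphatase, at 12.2 and 13.5, and Ppp1r9a and H13 with scores of 10.4 and 8.19. Inpp5f and Ppp1r9a also had a WT peak at a coding start. Silencing factors of endogenous retroviruses had 4 of 36 against 5. Uhrf1, which recruits maintenance DNA methylation, had 12.6 and 20.6 with a WT peak 0.514 kb away, and Morc3 had 16.41 and 9.997. Ncor1 and Cbx5, a heterochromatin protein, had scores of 11.4 and 10.8, with a WT peak 0.209 kb from the peak of Cbx5. Uhrf1 and Cbx5 also had a WT peak at a coding start. In the p53 list 2 of 34 genes were carriers against 4, the death gene Bbc3 at 9.647 and 10.85 and Ephx1, an epoxide hydrolase, at 9.18 and 7.39. Genes of the 2-cell-like state, a rare state of mESCs that uses retroviral promoters, had no carrier among 19, which allows up to 16.8%. Only 1 of them had any clone 3 promoter peak.

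Repeated sequence was rare at the clone 3-only promoter peaks. In 10 of 1072 (0.93%, interval 0.51 to 1.71) 50% or more of the 24-base stretches had 10 or more copies in mm9, against 0.68% of the shared and 1.69% of the WT-only promoter peaks. Of these 10, the highest-scoring was Zfp772, with 14.1 and 18.6, and 8 others were gene models known only by Gm numbers, among them Gm3512, Gm3252, Gm3483 and Gm3194, all on chromosome 14. The remaining one was Suclg2, a subunit of succinyl-CoA ligase, with 14.9 and 12.9, and it was the only one of the 10 with a WT peak at a coding start. Since the authors kept uniquely mapped reads, such peaks can be missed in both lists.

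Every autosome held clone 3-only promoter peaks, from 24 on chromosome 16 to 105 on chromosome 7. Their share of the clone 3 promoter peaks ran from 8.82% (interval 6.00 to 12.8) on chromosome 16 to 16.0% (interval 12.8 to 19.7) on chromosome 6, and these intervals do not overlap, with no allowance for the 19 chromosomes. The ratio of clone 3-only to WT-only promoter peaks was 0.567 (interval 0.526 to 0.611) over all, 0.353 on chromosome 16, 0.358 on chromosome 15 and 0.368 on chromosome 19, and 0.842 on chromosome 18, 0.798 on chromosome 6 and 0.778 on chromosome 7. It was below 1 on each of the 19 autosomes. Over all autosomes it moved to 0.221 with an IDR of 0.01 or less in both lists and to 0.168 for peaks at or above the median score of their list. Among autosomal peaks at any position, 6158 of 22101 were clone 3-only (27.9%), so the share was lower at promoters.

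**Figure D5:**
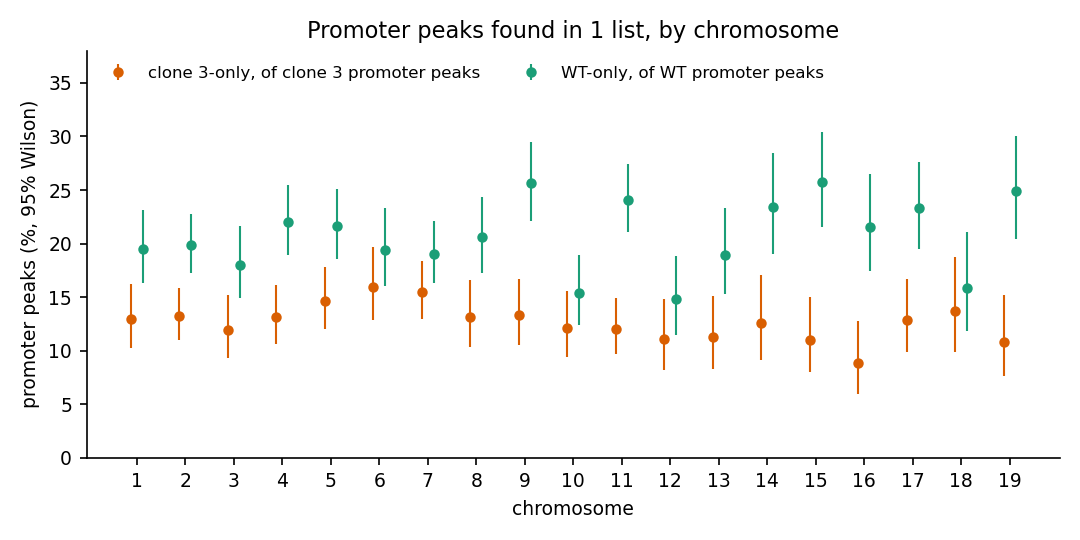
Percentage of the promoter peaks of each list that overlap no peak of the other list, by chromosome, with 95% Wilson intervals. The clone 3-only share lies between 8.82% and 16.0% and the WT-only share between 14.8% and 25.7%.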

How the data were processed

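ATAC-seq was made from HATX WT and 2 Spen KO clones of haploid mESCs, and the lists of peaks of HATX WT and Spen KO clone 3 were used. Per the methods and the submitters' processing notes, adapters were removed with cutadapt and Bowtie2 was used for mapping to mm9. The authors kept properly paired unique reads without duplicates, called peaks with MACS2 at a q-value of up to 0.01, and kept peaks under an IDR of 0.05 between technical replicates. The deposited columns hold each peak's position, its length, a value for each replicate on a scale not named, and the IDR. The columns do not say which value is which, and they were read as first replicate, second replicate and IDR. All columns could be assigned, so 0 columns of per-sample values were left out. Read depth is unknown.

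From the lists, overlap of at least 1 bp, the distance of midpoints to coding starts (GENCODE vM1), CpG content and motifs in 300 bp, and copies of 24-base sequences in the mm9 genome were computed in Python 3.11.15 (with scipy 1.17.1, numba 0.67.0, pandas 2.3.3 and numpy 2.4.6; plots with matplotlib 3.10.9) and tested on simulated data. A gene was assigned to every peak with a midpoint within 1 kb of any of its coding starts. No test between lines was made, since each has 1 list.

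The peaks, the 34 classes and the 10 motifs were chosen with earlier results of these data known, and class patterns that matched genes of another family by symbol alone were corrected after values were seen. Named genes were the 12 highest scores, the 8 highest at genes without a WT peak at a coding start, the 3 highest of each class (all where there were fewer). Other class members, gene pairs, alternative starts and repeated loci were named after their values were seen. Some items are not reported here. Alternatives changed the overlap, the distance, the thresholds on IDR and score, the list length, the chromosome 1 segment, and the CpG and copy limits.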

Additional observations from a re-analysis of the deposited data

Results flagged for a closer look

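Promoter peaks outside the selection were read in the same way because they lie in data that the report does not use. On the X chromosome 48 of 388 clone 3 promoter peaks were clone 3-only (12.4%, interval 9.46 to 16.0) and 42 of 382 WT promoter peaks were WT-only (10.99%, interval 8.24 to 14.5). On the autosomes the values were 12.9% and 20.8%. On the X chromosome the intervals of both lines overlap. In the left-out segment of chromosome 1 from 100 to 130 Mb, 12 of 47 clone 3 promoter peaks were clone 3-only (25.5%, interval 15.3 to 39.5) and 1 of 36 WT promoter peaks was WT-only (2.78%, interval 0.49 to 14.2). These differences were not tested, since each line has 1 list.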

How the results depend on the processing

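Of 66 values under the alternatives, 36 moved by less than their interval or stayed within 1.5 times the count, and 30 moved by more. The ratio of clone 3-only to WT-only promoter peaks was below 1 in each alternative, and the differences from shared and WT-only peaks were not recomputed. With an IDR of 0.01 or less in both lists, 399 peaks at 427 genes were clone 3-only, which was 7.16% of the promoter peaks, with a ratio of 0.221 and 8.90% of the carrying genes with a WT peak. With scores at or above the list median there were 54 peaks at 57 genes, a share of 1.13%, a ratio of 0.168, 7.02% with a WT peak, 40.7% CpG-rich and 0.0% multi-copy. With midpoints within 2 kb the share was 14.3%, 24.8% of genes had a WT peak and 40.5% of peaks were CpG-rich. Within 500 bp these values were 11.5%, 9.53% and 50.4%, with a ratio of 0.520, and for peaks overlapping a start 10.4%, 7.61% and 52.1%, with a ratio of 0.483 and 0.389% multi-copy. Counting a WT peak within 500 bp as shared gave a share of 11.8% and 10.1% of genes with a WT peak. Lists of equal length gave 11.1% and a ratio of 0.462. The looser CpG limits (50% GC, 0.6 of expected) gave 66.6% CpG-rich, and a minimum of 50 copies gave 0.187% multi-copy. Causes were not tested beyond what each setting does by construction.

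No paired analysis was possible because each line has 1 combined list, and for the same reason no replicate was left out. Read depth is unknown, so a peak missing from a list cannot be told apart from one just under its threshold. Most clone 3-only promoter peaks were weak, 1 knockout clone was compared with 1 WT line, and clone, culture and knockout cannot be told apart.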
